A study of Mus musculus with 4 samples.

Results

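The genes described here make, recycle or use glutathione and thioredoxin, or remove superoxide and peroxides. They were chosen by gene symbol, by a rule set with earlier results of these data known. The rule took glutathione transferases (Gst and Mgst symbols), glutathione peroxidases (Gpx), peroxiredoxins (Prdx), every symbol beginning with Txn, the glutaredoxins (Glrx), the superoxide dismutases Sod1 to Sod3, and Gclc, Gclm, Gss, Gsr, Cat, Nqo1 and Srxn1. Of the 15366 named genes on the arrays, 67 were members. RNA of whole mouse bladders was hybridised to Illumina arrays of 1 colour, which give 1 intensity per probe. The 2 obstructed arrays carried RNA of bladders taken 14 days after partial bladder outlet obstruction, surgery that narrows the outlet so that voiding takes more pressure. The 2 sham arrays carried RNA of sham operated bladders, for which the labels give no day. All were from male mice on a normal diet. The sources used here give neither strain nor age, and the labels' treatment entry names the obstruction for all 4 arrays, so that the titles alone separate the groups. Whether the arrays come from separate mice is not stated, so every p-value reflects the spread among these 4 samples, which could be technical.

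Glutathione is a small thiol made in successive steps by glutamate-cysteine ligase (Gclc and Gclm) and glutathione synthetase (Gss), and kept reduced by glutathione reductase (Gsr). Peroxidases spend it to reduce peroxides, transferases couple it to reactive lipids and foreign compounds, and the thioredoxin system runs beside it on the same reducing power. Many of these genes are known targets of the transcription factor NRF2, which acts with small MAF partners at sites called antioxidant response elements. In the bladder, outlet obstruction is known for cycles of poor and restored blood flow that expose the wall to oxygen radicals.

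Values are log2 intensities as deposited, so a difference of 1 means a 2-fold change, and each difference is obstructed minus sham. The values of all probes ran from 4.14 to 15.63 with a median of 5.80. A gene whose mean in both groups lay below this median is called dim here, a gene below it in all 4 arrays is said to be dim throughout, and 7 of the 67 members were dim (Gpx5, Gpx6, Gsto2, Gstt4, Txn1, Txndc16 and Txndc8). Obstructed replicate 2 stood further from the sham arrays than obstructed replicate 1 did, at correlations of 0.961 and 0.962 over all probes against 0.982 and 0.981. Of the 6 smooth muscle and 6 urothelial markers measured, all but Upk1b and Krt20 were above this median. The uroplakin Upk2 lay between 13.8 and 14.1 in all 4 arrays. Smooth muscle actin Acta2 measured 13.7 and 12.4 in the obstructed and 14.1 and 14.0 in the sham arrays. Acta2, Myh11 and Cnn1 differed by -1.01, -1.05 and -0.99 without overlap of the groups (limma adjusted p = 0.602, 0.555 and 0.516). The remaining smooth muscle markers, Tagln, Des and Actg2, differed by 0.07, 0.14 and -0.13 with overlapping groups. Markers of the male accessory glands, which are no part of the bladder, were also present. All 11 of them had a higher mean after obstruction, and their summed level was 13.5 and 17.9 in obstructed replicates 1 and 2, against 12.1 and 9.01 in sham replicates 1 and 2 (log2). The level in sham replicate 1 came mostly from Sbp, at 11.9 there and 5.89 in sham replicate 2. By median the markers lay at -0.02 and 0.02 from the sham mean in sham replicates 1 and 2. In RNA of a whole organ, fewer cells of a type and less RNA per cell cannot be told apart.

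As a group, these defence genes showed no common shift after obstruction, and none passed the test over all genes. Of the 7 members with a difference beyond 0.5, 6 had higher values after obstruction and 1, the membrane transferase Mgst1, had a lower mean that came from a single array. The 6 were the epithelial peroxidase Gpx2 at 2.16-fold, the transferases Gsta3 at 1.74-fold, Gstm2 at 1.63-fold and Mgst2 at 1.57-fold, the secreted peroxidase Gpx3 at 1.64-fold, and Gclc, the catalytic subunit of glutathione synthesis, at 1.49-fold. Among the thioredoxins, peroxiredoxins, dismutases and catalase, 0 members reached an unadjusted p below 0.05, and cytosolic thioredoxin (Txn1) was too dim to judge. Of the 67 members 34 had a higher and 33 a lower mean, where 46.9% of all genes had a higher one, and the median difference was 0.00 (quartiles -0.13 and 0.19), beside -0.02 over all 15366 genes. Differences lay within 0.25 either way for 51 members and beyond 0.5 for 7, or 10.4%, beside 8.77% of all genes. By median the size of the difference was 0.15 both for the members and over all genes. The 95% interval excluded a 2-fold change in either direction for 55 members, of which 48 were not dim. The share of all genes for which it did so was not counted, and the intervals rest on 2 arrays per group.

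By limma with Benjamini-Hochberg adjustment over all genes, 0 of the 67 members were called at an adjusted p below 0.05, where 0.0260% of all genes were called higher and 0.0260% lower, 4 genes each way. The smallest adjusted p among the members was 0.334, that of Gpx2. At an unadjusted p below 0.05 the counts were 6 higher (Gpx2, Gsta3, Gstm2, Gclc, Gpx3 and Mgst2) and 0 lower, or 8.96% and 0%, beside 3.05% and 5.09% of all genes. The groups did not overlap for 13 members that were higher and 7 that were lower, where 17.6% and 21.6% of all genes did not. Which members passed depended on single arrays. Without obstructed replicate 1, limma called Gpx2, Gpx3, Gsta3 and Gstm2 higher and Gpx7, Gstm1 and Sod3 lower, where 3.38% and 5.08% of all genes were called. Without obstructed replicate 2 it called Gpx2 and Mgst2 higher and Mgst1 lower, where 1.00% and 1.10% were called. In both fits the lone obstructed array is assumed to vary like the sham arrays. Without sham replicate 1 or sham replicate 2 it called 0 members, with 2 and 1 of them higher at an unadjusted p below 0.05 and 0 lower. Beside these stand 1.40% and 1.31% of all genes higher and 2.43% and 2.53% lower at that threshold. Without obstructed replicate 1 it put 9 members higher and 7 lower at that threshold, beside 7.58% and 11.8% of all genes, and without obstructed replicate 2 it put 11 higher and 4 lower, beside 6.14% and 6.83%.

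**Figure D1:**
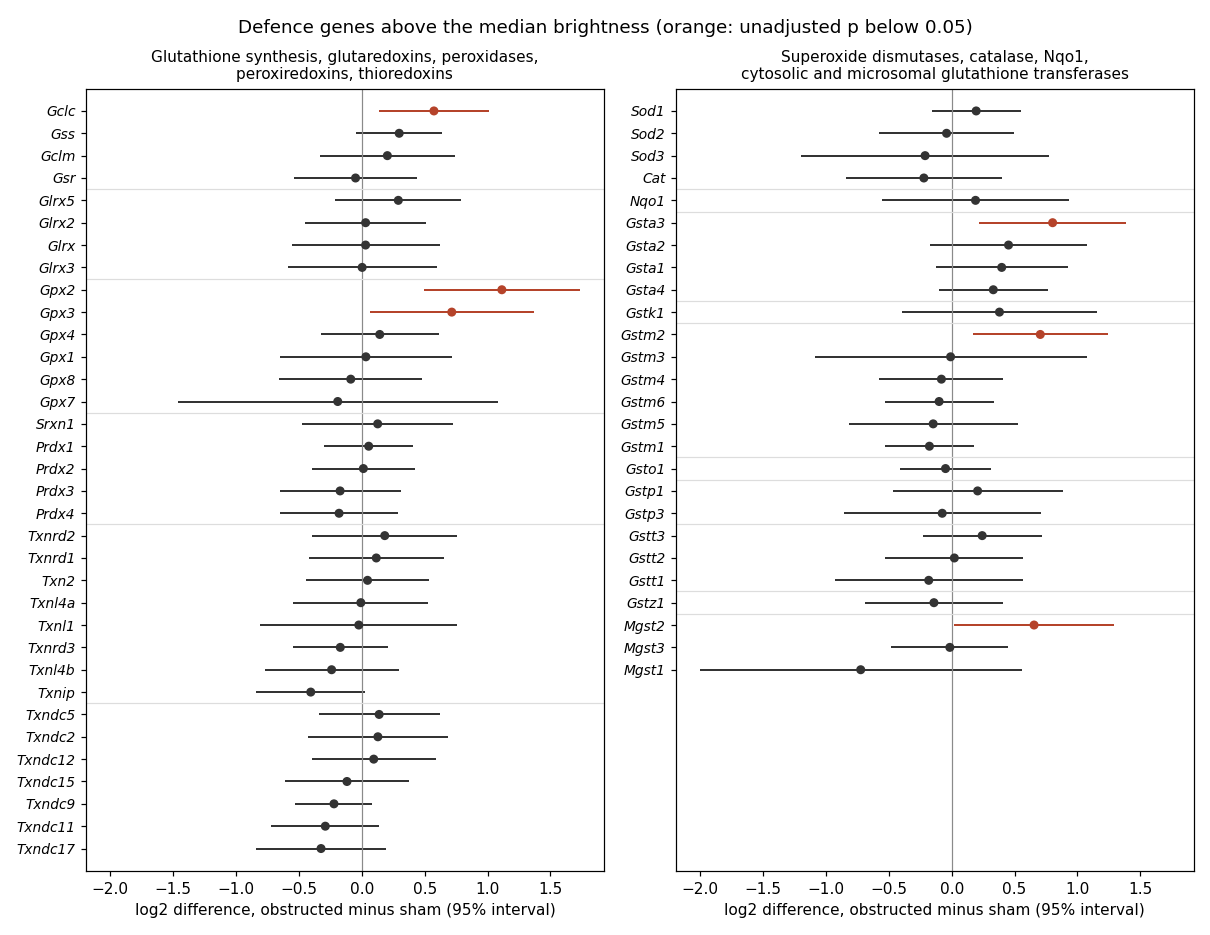
Log2 differences, obstructed minus sham, of the 60 members that were not dim, with 95% intervals of the limma fit (2 arrays per group), ordered by role. Orange marks the 6 members at an unadjusted p below 0.05, all to the right of 0, while most other intervals straddle 0 closely and those of Gpx7, Sod3, Gstm3 and Mgst1 are wide.

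Of the 4 genes that make and recycle glutathione, Gclc was the 1 at an unadjusted p below 0.05. Gclc, which carries the catalytic site of the rate-limiting step, measured 8.15 and 8.07 in the obstructed arrays, against 7.60 and 7.48 in the sham arrays. Both obstructed arrays lay above both sham arrays, with a log2 difference of 0.57 (SE 0.18, limma adjusted p = 0.497). Its regulatory partner Gclm measured 9.19 and 9.53 in obstructed and 9.12 and 9.19 in sham bladders, so that the groups overlapped at a difference of 0.20. Gss, which adds the last amino acid, measured 6.76 and 6.75 in obstructed and 6.45 and 6.47 in sham bladders. That is a small gap of 0.30 (SE 0.14, limma adjusted p = 0.654), without overlap, and a second, dimmer probe of Gss differed by -0.08. Gsr, the reductase, differed by -0.05 (95% interval -0.54 to 0.44). The glutaredoxins, which undo mixed disulfides between glutathione and proteins, all had differences of 0.29 or less. Glrx5, the mitochondrial member needed for iron-sulfur clusters, had the largest, with 11.28 and 11.46 in obstructed against 11.24 and 10.93 in sham bladders, and Glrx, Glrx2 and Glrx3 lay between 0.00 and 0.03.

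The glutathione peroxidases split by member. Gpx2, known as the peroxidase of gut and other epithelia, measured 8.24 and 7.55 in the obstructed arrays, against 6.76 and 6.81 in the sham arrays. Both obstructed arrays stood clear of the sham arrays, replicate 1 by more, and the log2 difference was 1.11 (SE 0.25, 95% interval 0.49 to 1.74, limma adjusted p = 0.334). It was 1.46 in obstructed replicate 1 alone and 0.77 in obstructed replicate 2 alone, with limma adjusted p-values of 6.55e-04 and 0.0165. Urothelial markers, 6 measured of 7 listed, had medians of 0.00 and 0.04 above the sham mean in obstructed replicates 1 and 2. Of them 4 had a higher and 2 a lower mean, from 0.18 for Krt5 to -0.12 for Krt20, and Krt7 was 13.8 in all 4 arrays. The summed level of these markers was 15.3 and 15.2 in the obstructed and 15.3 and 15.1 in the sham arrays, with Upk1b and Krt20 dim throughout. The part of the urothelium in the value of Gpx2 was not tested.

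Gpx3, the secreted plasma form, measured 11.86 and 12.57 in obstructed bladders and 11.59 and 11.42 in sham bladders. Here obstructed replicate 2 was the higher, and the difference was 0.71 (SE 0.27, limma adjusted p = 0.577), or 0.36 without that array and 1.07 with it alone. The accessory gland markers, too, peaked in that array, with medians of 3.26 and 9.003 above the sham mean in obstructed replicates 1 and 2. Their part in the value of Gpx3 was not tested.

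The peroxidases best known from most cells were close to level. Gpx4, which protects membranes from lipid peroxides, differed by 0.14 (95% interval -0.33 to 0.61). Gpx1, the abundant cytosolic form that red cells also carry, had 13.08 and 12.24 in the obstructed arrays, on either side of 12.62 and 12.64 in the sham arrays. Erythroid markers, 4 measured of 5 listed and none dim throughout, had medians of 0.00 and -1.18 from the sham mean in obstructed replicates 1 and 2. Their summed level was 14.1 and 12.1 in the obstructed and 14.2 and 14.0 in the sham arrays, and their part in Gpx1 was not tested. Gpx7, a peroxidase of the endoplasmic reticulum, was the least stable member of the family, with 9.55 and 7.88 in obstructed against 9.02 and 8.80 in sham bladders. Its relative Gpx8 differed by -0.09, and Gpx5 and Gpx6, known from the epididymis and the olfactory lining, were dim throughout.

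**Figure D2:**
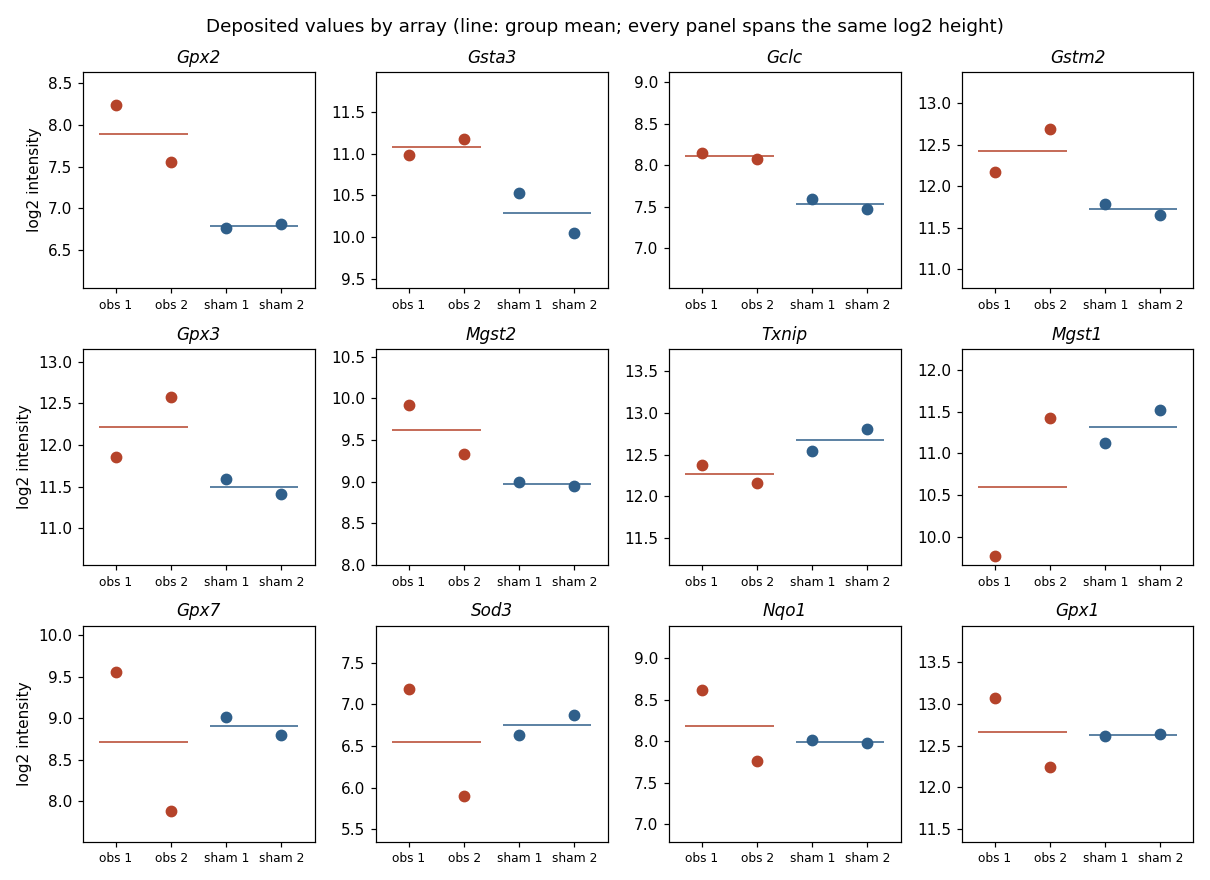
Deposited log2 intensities of 12 members in each array, obstructed (orange) left of sham (blue), with a line at each group mean and the same height of axis in every panel. In Gpx2, Gsta3, Gclc, Gstm2, Gpx3 and Mgst2 both obstructed arrays lie above both sham arrays, in Txnip both lie below, and in Gpx7, Sod3, Nqo1 and Gpx1 the obstructed arrays fall on either side of the sham arrays.

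Peroxiredoxins, the thiol peroxidases that are reduced by thioredoxin, and sulfiredoxin had differences between -0.18 and 0.13, and 0 of these 5 genes reached an unadjusted p below 0.05. Prdx1 measured 13.17 and 13.35 in obstructed against 13.13 and 13.28 in sham bladders, a difference of 0.05 (95% interval -0.30 to 0.41). Prdx2 differed by 0.01 and the endoplasmic reticulum form Prdx4 by -0.18. The mitochondrial form Prdx3 measured 9.48 and 9.44 in obstructed and 9.63 and 9.63 in sham bladders. These groups did not overlap, but the gap of -0.17 was smaller than its standard error of 0.20. Srxn1, the sulfiredoxin that repairs overoxidised peroxiredoxins, had obstructed values of 8.30 and 7.76 on either side of the sham values of 7.79 and 8.02. Prdx5 and Prdx6 had no probe named for them and were not analysed here.

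In the thioredoxin system the inhibitor Txnip had the largest difference. Txnip binds reduced thioredoxin and restrains glucose uptake, and it measured 12.38 and 12.16 in obstructed bladders, against 12.54 and 12.81 in sham bladders. Both obstructed arrays lay below both sham arrays, at a log2 difference of -0.41 (SE 0.18, 95% interval -0.84 to 0.03, limma adjusted p = 0.642). The reductases that return thioredoxin to its reduced form had small differences. The cytosolic Txnrd1 differed by 0.11, the mitochondrial Txnrd2 by 0.18 and Txnrd3, a form rich in testis, by -0.17. Mitochondrial thioredoxin, Txn2, measured 9.55 and 9.46 in obstructed and 9.50 and 9.43 in sham bladders. Cytosolic thioredoxin, Txn1, could not be judged, since all 4 of its probes were dim throughout. Of the thioredoxin-like genes Txnl1, Txnl4a and Txnl4b, the last had the largest difference, -0.24. Brighter probes of the spliceosomal gene Txnl4a disagreed, at -0.01, 0.35 and 0.32.

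The thioredoxin domain proteins, most of them folding enzymes of the secretory pathway or germ cell proteins, ran from -0.32 to 0.14. Txndc17, a cytosolic reductase, was at the lower end, with 7.29 and 7.59 in obstructed against 7.93 and 7.61 in sham bladders, so that the groups only just missed each other. Txndc5, a disulfide isomerase of the endoplasmic reticulum, was at the upper end at 0.14, though another of its probes differed by -0.29. Txndc9 and Txndc11, at -0.22 and -0.29, lay close to the median of all probes, and the other probes of Txndc11 differed by -0.03 and 0.29.

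Superoxide dismutases, which turn superoxide into hydrogen peroxide, and catalase, which breaks the peroxide down, showed no shared direction. Sod1, the cytosolic enzyme, measured 12.68 and 12.70 in obstructed bladders and 12.47 and 12.52 in sham bladders. The gap was small and free of overlap, at 0.19 (SE 0.14, limma adjusted p = 0.772). The mitochondrial Sod2 differed by -0.04 (95% interval -0.58 to 0.49). The extracellular Sod3 measured 7.19 and 5.89 in obstructed against 6.63 and 6.87 in sham bladders, one obstructed array above and one below. Cat measured 8.26 and 8.82 in obstructed and 8.70 and 8.83 in sham bladders, a difference of -0.22 that came from replicate 1 alone. Nqo1, a quinone reductase widely used as a readout of NRF2, measured 8.61 and 7.76 in obstructed bladders and 8.02 and 7.97 in sham bladders. Its difference was 0.19 (95% interval -0.55 to 0.93), and a second probe gave 0.04.

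The 20 glutathione transferases that are not of the membrane-bound family had 10 higher and 10 lower means, and 2 of them, Gsta3 and Gstm2, were higher at an unadjusted p below 0.05. The 4 alpha members had differences between 0.33 and 0.80, with both obstructed arrays above both sham arrays, as held for 17.6% of all genes. Gsta3, which also isomerises steroid intermediates in some species, measured 10.99 and 11.18 in the obstructed arrays, against 10.52 and 10.04 in the sham arrays. Its difference was 0.80 (SE 0.24, 95% interval 0.22 to 1.38, limma adjusted p = 0.486). Obstructed replicates 1 and 2 stood 0.71 and 0.90 above the sham mean. Gsta2 measured 10.52 and 11.07 in obstructed and 10.46 and 10.22 in sham bladders, a difference of 0.45, with dimmer probes at 0.46 and 0.30. Gsta1 differed by 0.40, with a dimmer probe at 0.10. Gsta4, which is specialised for the lipid aldehyde hydroxynonenal, measured 14.39 and 13.94 in obstructed and 13.92 and 13.74 in sham bladders. Its values in obstructed replicate 2 and sham replicate 1 nearly met, and the difference was 0.33 (limma adjusted p = 0.702). Gsta1 and Gsta2, like Gsta3, stood further above the sham mean in obstructed replicate 2, at 0.27 and 0.52 and at 0.17 and 0.73 in replicates 1 and 2. Gsta4 leaned the other way, at 0.56 and 0.10. The accessory gland markers were also further above the sham mean in replicate 2, and their part in the alpha class was not tested. Probes for such closely related genes may share target, which was not tested.

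In the mu class 1 member stood apart from its neighbours. Gstm2 measured 12.17 and 12.69 in obstructed bladders, against 11.79 and 11.66 in sham bladders. The difference was 0.70 (SE 0.22, limma adjusted p = 0.497), with obstructed replicates 1 and 2 at 0.44 and 0.96 above the sham mean, and the other probes of Gstm2 gave 0.94 and 0.42. The accessory gland markers were likewise further above the sham mean in obstructed replicate 2, as given with Gpx3 (medians 3.26 and 9.003), and their part in Gstm2 was not tested. In RefSeq's list of genes, 7 mu genes lie next to each other with no other protein-coding gene between them, and 6 of these were measured. By their brightest probes the 5 around Gstm2, named Gstm5, Gstm6, Gstm3, Gstm1 and Gstm4, lay between -0.18 and -0.01. Of their further probes that were not dim, that of Gstm6 gave 0.06 and that of Gstm1 -0.20. Gstm1 measured 15.39 and 14.99 in obstructed and 15.44 and 15.30 in sham bladders, near the top of the arrays' range, where differences may be compressed. The same limit holds for Gstm6, with 15.06 and 14.58 in obstructed and 15.04 and 14.80 in sham bladders. Gstm3 was uncertain because its sham arrays were 9.90 and 8.52, further apart than any difference in the class.

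In the remaining classes 0 members reached an unadjusted p below 0.05. Gstp1, the pi class enzyme of many epithelia, measured 12.70 and 12.07 in obstructed and 12.43 and 11.93 in sham bladders, and its 3 probes gave 0.21, -0.11 and -0.01. Its neighbour Gstp3 differed by -0.08. The theta class ran from -0.18 for Gstt1 to 0.24 for Gstt3, and the zeta member Gstz1, an enzyme of tyrosine breakdown, differed by -0.14. Gsto1 of the omega class measured 12.45 and 12.49 in obstructed against 12.47 and 12.56 in sham bladders (95% interval -0.41 to 0.31). Gstk1, a form of mitochondria and peroxisomes, had 10.24 and 10.87 in obstructed and 10.48 and 9.87 in sham bladders, and its difference of 0.38 was no larger than the spread within the sham group.

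Of the membrane-bound transferases Mgst2 was higher and Mgst1 was divided between the obstructed arrays. Mgst2, which can also join glutathione to leukotriene A4, measured 9.92 and 9.33 in obstructed against 8.999 and 8.94 in sham bladders. Both obstructed arrays were above the sham arrays, at a difference of 0.65 (SE 0.26, 95% interval 0.02 to 1.29, limma adjusted p = 0.601), or 0.95 without obstructed replicate 2. Mgst1, an abundant enzyme of liver and fat, measured 9.76 in obstructed replicate 1 and 11.43 in obstructed replicate 2, against 11.12 and 11.52 in sham bladders. Its group difference of -0.72 (SE 0.52) therefore came from 1 array, and it was -1.56 without obstructed replicate 2 (limma adjusted p = 0.00162) and 0.11 without obstructed replicate 1. Adipocyte markers, 6 measured of 7 listed, had medians of -0.65 and -0.83 from the sham mean in obstructed replicates 1 and 2. Their summed level was 8.26 and 8.38 in the obstructed arrays, against 11.1 and 10.1 in the sham arrays, with Plin1 and Retn dim throughout. Their part in Mgst1 was not tested. Mgst3 differed by -0.02.

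The obstructed arrays disagreed in direction for many members. Both lay above the sham mean for 19 members and both below it for 16. Replicate 1 was above and replicate 2 below for 22, and the reverse held for 10. The shares of all genes split in these ways were not counted, so the counts cannot be called particular to the members. By median, the members lay 0.17 and 0.18 from the sham mean in either direction in replicates 1 and 2, beside 0.17 and 0.19 over all genes. The widest splits were those of Gpx7, at 0.64 and -1.02 from the sham mean in replicates 1 and 2, Mgst1, at -1.56 and 0.11, and Sod3, at 0.44 and -0.86. Nqo1 and Gpx1 split the same way as Sod3, at 0.61 and -0.24 and at 0.45 and -0.39. Over the members the median standard deviation within a group was 0.17 in obstructed and 0.14 in sham bladders, beside 0.15 and 0.11 over all genes. Marker medians split in the same way, above the sham mean in obstructed replicate 1 and below it in obstructed replicate 2, for leukocytes (5 measured of 7 listed, 0.27 and -0.39), endothelium (5 of 5, 0.13 and -0.32) and fibroblasts (4 of 4, 0.09 and -0.45). They lay below it in both and further in replicate 2 for smooth muscle (6 of 6, -0.18 and -0.90), skeletal muscle (5 of 6, -0.87 and -1.70) and Schwann cells (2 of 4, -0.83 and -1.63). The widest gap between the replicates was that of the accessory gland markers (11 of 11, 3.26 and 9.003). Erythroid markers came next (4 of 5, 0.00 and -1.18). The part of these cell types in the members' splits was not tested.

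**Figure D3:**
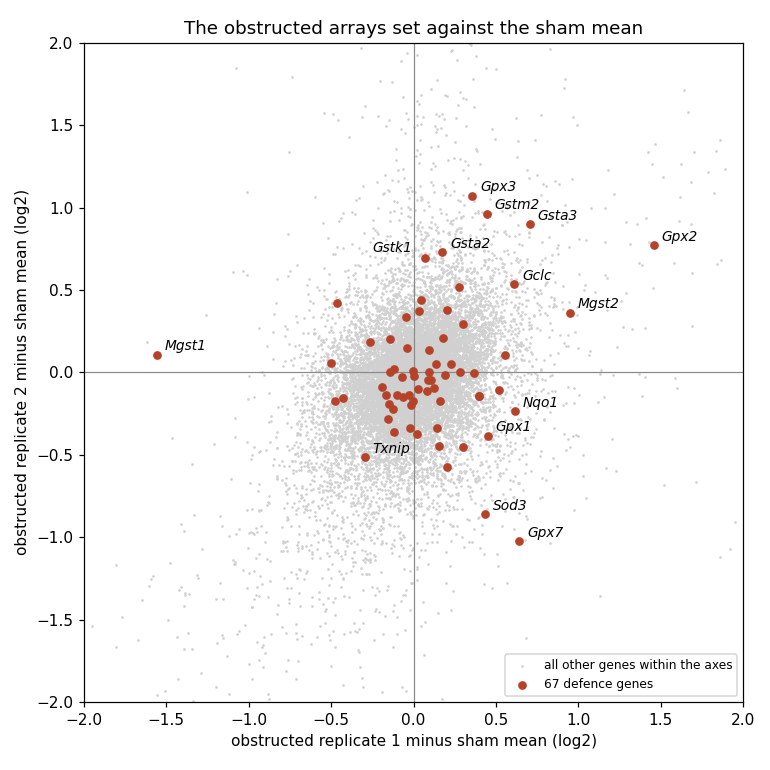
Each gene's value in obstructed replicate 1 (horizontal) and obstructed replicate 2 (vertical) minus the mean of the 2 sham arrays, in log2 units, with the 67 members in orange and other genes in grey. Of all genes 153 lie outside the axes and 0 of them are members. Gpx2, Gsta3, Gclc, Gstm2, Gpx3 and Mgst2 lie in the upper right, and Gpx7, Sod3, Nqo1 and Gpx1 in the lower right where the arrays disagree.

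In the wider NRF2 system the largest difference was that of Maff, and the 3 small MAF factors were unequal. Maff, a small MAF protein that lacks an activation domain of its own, measured 8.95 and 8.46 in obstructed bladders, against 7.09 and 7.15 in sham bladders. That is a difference of 1.59 (SE 0.23), 3.01-fold, with a limma adjusted p of 0.149. Mafk, its close relative, measured 9.89 and 9.43 in obstructed and 8.64 and 8.42 in sham bladders, a difference of 1.13 (SE 0.24, limma adjusted p = 0.312), close to the 1.11 of Gpx2. The third small MAF gene, Mafg, differed by 0.34 (limma adjusted p = 0.738). Bach1, a repressor that pairs with small MAF proteins at the same sites, measured 8.69 and 8.17 in obstructed against 7.71 and 7.79 in sham bladders (difference 0.68, limma adjusted p = 0.545). In Maff, Mafk and Bach1 both obstructed arrays lay above both sham arrays. The gene of NRF2 itself, Nfe2l2, differed by 0.14 and that of its inhibitor Keap1 by -0.06.

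Of 34 measured genes of the NRF2 system and glutathione supply, 0 passed over all genes. At an unadjusted p below 0.05, 4 were higher and 0 lower, beside 3.05% and 5.09% of all genes. Of the list 23 had a higher and 11 a lower mean, where 46.9% of all genes had a higher one, with a median difference of 0.07. They were Maff, Mafk, Bach1 and Tkt, the transketolase of the pentose phosphate pathway, which measured 12.53 and 12.56 in obstructed and 12.13 and 11.98 in sham bladders (difference 0.49, limma adjusted p = 0.512). Haem oxygenase, Hmox1, differed by 0.30 with overlapping groups, and the cystine transporter Slc7a11 by 0.14 at values near the median of all probes. Chac1, which breaks glutathione down, measured 7.71 and 8.49 in obstructed and 7.53 and 7.29 in sham bladders, a difference of 0.69 (limma adjusted p = 0.634). The methionine sulfoxide reductases which repair oxidised methionine, did not run one way. Msra, Msrb1 and Msrb2 differed by -0.53, -0.36 and -0.31 and Msrb3 by 0.22, none at an unadjusted p below 0.05.

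Sources of superoxide and peroxide did not have higher values as a list. Of 14 measured, 6 had a higher and 8 a lower mean, with a median of -0.09, and 0 passed over all genes. Maob, a mitochondrial amine oxidase that releases hydrogen peroxide, was the 1 gene of the 14 at an unadjusted p below 0.05, where 5.09% of all genes were lower at that threshold. It measured 6.87 and 6.596 in obstructed bladders, against 7.78 and 7.70 in sham bladders, a difference of -1.01 (SE 0.18, limma adjusted p = 0.202). The 4 measured oxidase subunits of phagocytes had no shared pattern. Cyba and Cybb lay above the sham mean in obstructed replicate 1 and below it in obstructed replicate 2, at 0.68 and -0.56 and at 0.22 and -0.57. Ncf4 was below it in both, at -0.13 and -1.45, and Ncf1 was within 0.25 of it in both. The oxidases Nox1 and Nox3 were dim throughout, and Nox4 lay close to the median of all probes.

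**Figure D4:**
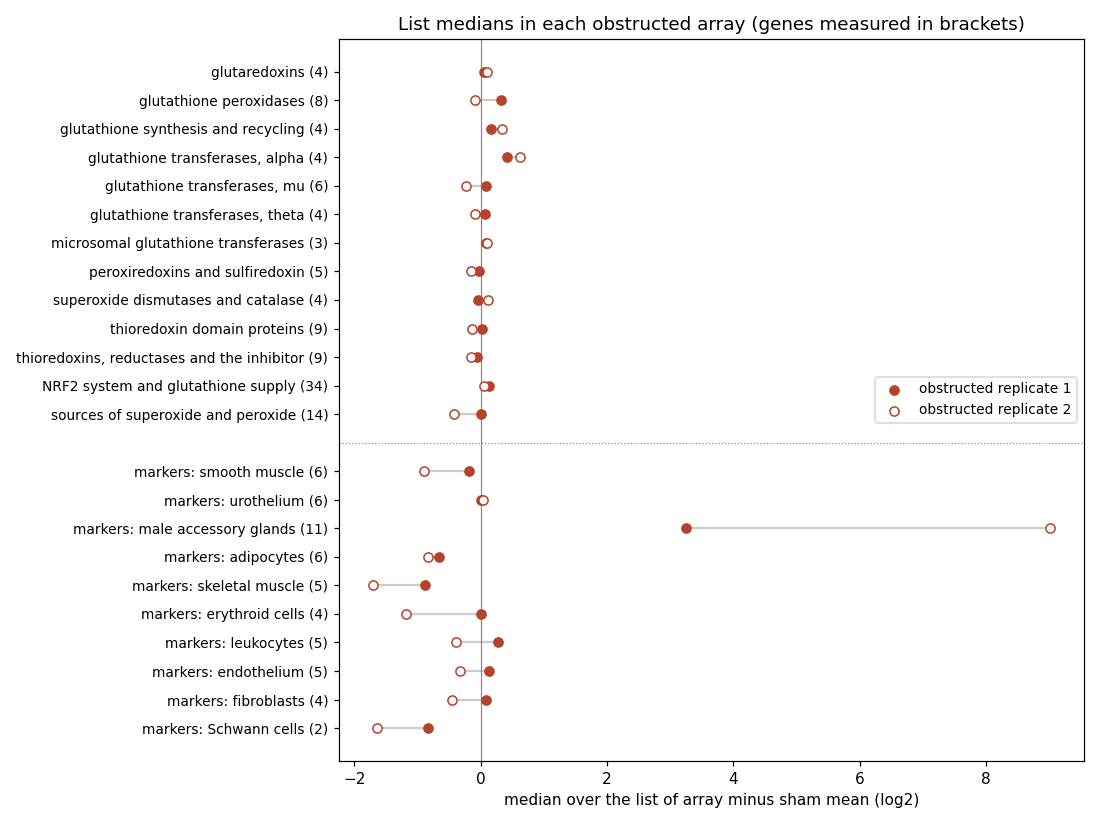
Median over each list of an obstructed array minus the sham mean, in log2 units, for roles with at least 3 members, for both pathway lists and, below the dotted line, for cell type markers. Filled points are obstructed replicate 1 and open points obstructed replicate 2. The alpha transferases and glutathione synthesis lie to the right of 0 in both arrays, by less than the accessory gland markers, which lie at 3.26 and 9.003. The glutaredoxins, microsomal transferases, NRF2 list and urothelial markers also lie to the right of 0 in both, by less than those roles. The microsomal median is Mgst3 in replicate 1 and Mgst1 in replicate 2, and of these 3 genes 1 had a higher and 2 a lower mean.

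Promoter sequence was read for what the members share beyond their names. RefSeq windows from 250 bases before to 50 bases after each annotated start (GRCm38.p6) were found for 60 of the 67 members and searched on both strands for TGACNNNGC, the core of the antioxidant response element, which can overlap the AP-1 site TGACTCA. The core was present in 11 of 60 members (18.3%) and in 14.0% of all genes with a window. Per window it was 11 of 81 (13.6%), beside 12.4% of all windows. Of the 6 members at an unadjusted p below 0.05, Gclc had no window in the table and 1 of the other 5, Gsta3, held the core. Among the 11 members with the core, Mgst1, Txndc11 and Gstm5 had lower means, at -0.72, -0.29 and -0.15, and the rest had higher means. Below, Gsta3 is shown beside Gclm, Prdx1, Srxn1 and Txnrd1, known NRF2 targets in other settings whose differences here were 0.20 or less. Each is written 5′ to 3′ on the strand of the match, which is in capitals, with its place in GRCm38.p6.
Gsta3, chr1:21240453-21240483, plus strand: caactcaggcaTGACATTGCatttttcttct
Gclm, chr3:122245412-122245442, minus strand: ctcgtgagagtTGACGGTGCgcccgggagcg
Prdx1, chr4:116685455-116685485, minus strand: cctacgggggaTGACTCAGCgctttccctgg
Srxn1, chr2:152105541-152105571, minus strand: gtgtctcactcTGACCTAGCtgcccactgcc
Txnrd1, chr10:82859103-82859133, minus strand: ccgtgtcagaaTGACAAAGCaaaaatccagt
Only the match of Prdx1 among the 11 also holds TGACTCA. The whole windows of the members with the largest differences, Gpx2 without the core and Gsta3 with it in capitals, are given for comparison. They lie at chr12:76795505-76795804 on the minus strand and chr1:21240335-21240634 on the plus strand, and both begin at the base furthest upstream.
Gpx2: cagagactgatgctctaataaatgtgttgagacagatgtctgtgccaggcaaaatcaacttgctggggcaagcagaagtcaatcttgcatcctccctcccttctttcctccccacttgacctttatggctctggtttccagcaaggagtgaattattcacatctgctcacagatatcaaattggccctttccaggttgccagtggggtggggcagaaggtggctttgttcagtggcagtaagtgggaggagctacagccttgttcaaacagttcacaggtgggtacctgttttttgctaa
Gsta3: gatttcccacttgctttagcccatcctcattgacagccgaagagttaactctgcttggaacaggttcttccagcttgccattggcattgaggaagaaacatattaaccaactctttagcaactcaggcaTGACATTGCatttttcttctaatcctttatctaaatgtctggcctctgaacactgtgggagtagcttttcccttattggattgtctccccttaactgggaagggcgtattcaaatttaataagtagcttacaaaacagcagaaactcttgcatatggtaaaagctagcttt
Read along the gene, the match begins 121 bases before the annotated start in Gsta3, 134 in Gclm, 133 in Prdx1 and 92 before 1 of 3 annotated starts in Txnrd1, and it lies after the start in Srxn1. A match is a run of letters and not a measured binding site, and a window without one leaves other parts of the gene unread.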

How the data were processed

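Biotin-labelled RNA of obstructed and sham mouse bladders was hybridised to Illumina arrays, 2 per group, per the labels' protocols. The authors deposited 1 normalized log2 value per array for 46657 probes, the log2 scale being read from the range of the values because it is stated nowhere. The sorted values of the 4 columns were nearly identical (largest difference 0.0252), the mark of quantile normalization. The sources used here name no background correction, software or filter, and the number of arrays limits the precision. Platform annotation gave 22380 probes 1 gene symbol, 0 several and 24277 none, and 0 columns were left unused. Each gene was represented by its brightest probe. The 67 members had 103 probes. Of the 18 members with at least 2 probes that were not dim, 7 had such probes of opposite sign (Gss, Gstm6, Gstp1, Prdx2, Txndc11, Txndc5 and Txnl4a).

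Groups were compared in limma 3.58.1 (R 4.3.3) by lmFit and trended eBayes, two-sided, on 6.04 degrees of freedom after moderation, with Benjamini-Hochberg adjustment over 15366 genes. In 5 simulations of obstructed against sham over 15366 genes, 20.4% of genes changed 2-fold and 88.0% of those changed 4-fold were called, with 4.40 false calls on average. The simulations drew each gene independently with the same spread in both groups. In the arrays the median standard deviation over all genes was 0.15 in obstructed and 0.11 in sham bladders, so these shares may not hold for them. The members, lists, naming rule and alternatives were chosen with earlier results of these data known. The rule named the core enzymes, the 8 members per direction with the smallest p that were not dim, and the largest difference per direction in each role. Other members named as range ends, for their class or for their probes, were chosen after their values were seen. Alternatives covered normalization, a floor, a brightness filter, probe averaging, moderation, leaving out each array, the replicate number as a block and an adjusted p below 0.1. Figures used matplotlib 3.10.9.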

Additional observations from a re-analysis of the deposited data

How the results depend on the processing

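With 2 arrays per group the calls depended on single arrays more than on the settings. Quantile normalization and centring on array medians could change almost nothing, because the sorted values of the deposited columns were already nearly identical. Their results are therefore no separate check. Under each setting that kept all 4 arrays, limma called 0 of the members tested, and Gpx2, Gsta3 and Gclc were higher at an unadjusted p below 0.05 in all of them. With a floor of 50 set on linear values, Gpx3, Gstm2 and Mgst2 no longer were, Gss was, and 2 members, Prdx3 and Txndc9, were lower. Txn1 lay at that floor in all arrays. Over all genes, limma called 4 higher and 4 lower as reported, 0 and 0 with the floor, 2 and 1 with genes below the median brightness removed, 2 higher without the trend, 11 lower with a robust trend, and 7 and 16 at an adjusted p below 0.1. The replicate number as a block gave 0 higher and 1 lower, with 6 members higher at an unadjusted p below 0.05 as before. Whether the numbers pair the arrays is not stated. Replicate 1 deviations from the group means correlated at 0.06 between groups over all probes. That is no strong shared effect of the number, but 1 correlation cannot exclude a pairing. With the mean of all probes, Prdx2 differed by -0.051 and Txndc5 by -0.076, opposite to the brightest probe.

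With each array left out in turn, limma called between 0 and 519 genes higher and 0 and 780 lower, and between 0 and 7 members. At an unadjusted p below 0.05, 1 to 11 members were higher and 0 to 7 lower. These fits take a group's single array to be as variable as the other group. Differences changed sign for 38 of the 67 members, whose directions are therefore not settled by these arrays, 21 of them among those the naming rule picked. These 21 ran from -1.56 to 0.11 for Mgst1, -1.02 to 0.64 for Gpx7, -0.86 to 0.44 for Sod3, -0.57 to 0.21 for Gstt1, -0.50 to 0.058 for Cat, -0.45 to 0.30 for Gstp3, -0.39 to 0.45 for Gpx1, -0.37 to 0.019 for Gstm1, -0.33 to 0.047 for Gstz1, -0.26 to 0.18 for Sod2, -0.24 to 0.61 for Nqo1, -0.17 to 0.23 for Glrx, -0.14 to 0.40 for Srxn1, -0.12 to 0.018 for Gsr, -0.11 to 0.52 for Gstp1, -0.10 to 0.12 for Prdx2, -0.051 to 0.28 for Txnrd1, -0.038 to 0.15 for Prdx1, -0.030 to 0.31 for Gpx4, -0.028 to 0.39 for Txnrd2 and -0.00058 to 0.091 for Txn2. Of the others, the range was -0.70 to 0.68 for Gstm3, -0.47 to 0.42 for Txnl1, -0.45 to 0.15 for Gstm5, -0.34 to 0.14 for Gstm6, -0.30 to 0.31 for Glrx3, -0.30 to 0.12 for Gpx8, -0.18 to 0.16 for Txnl4a, -0.18 to 0.014 for Gstm4, -0.11 to 0.083 for Mgst3 and -0.044 to 0.10 for Glrx2, and Gpx6, Gsto2, Gstt2, Txndc2, Txndc8, Txndc12 and Txndc16 changed sign too. Gpx2 ran from 0.77 to 1.46, Gsta3 from 0.56 to 1.04, Gstm2 from 0.44 to 0.96, Gclc from 0.51 to 0.63, Gpx3 from 0.36 to 1.07 and Mgst2 from 0.36 to 0.95. The share of all genes that changed sign was not counted, and the cause of these changes was not tested.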

Other observations

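Other proteins that bind or use glutathione, a list of 17 measured genes put together after the members' values were seen, had 8 higher and 9 lower means, a median of -0.02 and 0 genes past limma over all genes. At an unadjusted p below 0.05, 0 were higher and 2 lower, beside 3.05% and 5.09% of all genes. These were the chloride channel family members Clic3, with 5.68 and 5.97 in obstructed against 6.76 and 6.30 in sham bladders, and Clic5, with 5.58 and 5.61 against 5.997 and 6.13 in sham bladders, all near the median of all probes. Ptges, the microsomal prostaglandin E synthase that uses glutathione, measured 6.83 and 8.25 in obstructed and 6.58 and 6.80 in sham bladders, so that its difference of 0.85 came mostly from obstructed replicate 2. Of the glyoxalases, which clear methylglyoxal with glutathione, Glo1 differed by -0.28 and Hagh by 0.44, each without overlap of the groups (limma adjusted p = 0.740 and 0.641).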
